A study of Mus musculus with 8 samples.

Results

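The smooth muscle contractile apparatus is described here through 32 genes named by symbol: the contractile actins and myosin chains, the thin filament proteins, the proteins that set the phosphorylation of myosin, the proteins of dense bodies, dense plaques and the membrane, the intermediate filaments, and the transcriptional regulators Srf and Myocd. Of these, 31 were measured, among 13119 genes with a symbol in the data, and Rock2 was not analysed here. The members had 69 probe sets on the array, of which 68 passed a filter on low signal, and every member was read from its brightest probe set, that is, the one with the highest mean log2 signal over the 8 arrays. All 31 brightest probe sets passed the filter, which asked for signals no lower than 100 on 4 arrays or more.

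RNA came from the gravid uterus at gestational day (d) 18.0, with 1 mouse per array. There were 4 Cox-1 KO mice, which lack cyclooxygenase-1 (the gene Ptgs1) and were bred on a C57BL/6 x Sv129 background, and 4 wild-type mice, which were C57BL/6. All were females given as 6 to 16 weeks of age, and the fetuses, fetal membranes and placentas had been taken out of the uteri. The strain background thus differed together with the deleted gene, and their effects cannot be told apart. The study asked which uterine genes are abnormally expressed before birth in a mouse whose labor comes late.

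Smooth muscle of the myometrium, the outer layer of the uterus, contracts when calcium and calmodulin activate myosin light chain kinase, which phosphorylates the regulatory light chain so that myosin pulls on actin. Myosin phosphatase reverses this, and inhibition of the phosphatase lets force be kept at low calcium. The filaments are anchored at dense bodies within the cell and at dense plaques on the membrane, and most genes of the apparatus are driven by serum response factor, which binds a short A/T-rich element called the CArG box, together with its coactivator myocardin.

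Before the members, 3 facts of the arrays are given because they touch the results. Ptgs1 had signals of 88, 122, 76 and 136 on Cox-1 KO arrays, against 7048, 10610, 10756 and 10508 on wild-type arrays, as the labels say. Transcripts of yolk sac and fetal liver were high on 4 arrays, namely Cox-1 KO replicates 1, 3 and 4 and wild-type replicate 4: Apoa1, an apolipoprotein of those tissues, read 69038, 796, 58425 and 51184 on Cox-1 KO arrays and 342, 615, 842 and 50275 on wild-type arrays. Of the 10 genes of that list 9 were measured and 8 passed the filter. The summed signal of the 9 ranged between 9270 and 311833 on Cox-1 KO arrays and between 4944 and 212800 on wild-type arrays. Skeletal muscle transcripts stood out on Cox-1 KO replicate 4, where Mylpf, the regulatory light chain of fast skeletal myosin, read 3246, against 144 to 198 on the other Cox-1 KO arrays and 180 to 243 on wild-type arrays. The uterine markers Pgr, Esr1, Hoxa10, Hoxa11, Msx1 and Wnt5a were all measured, and the summed signal of 11 smooth muscle markers, all of them members, was 322130 to 345052 on Cox-1 KO arrays and 311503 to 349918 on wild-type arrays.

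CArG boxes stood close to the start of several members, and these sequences are shown because Srf and its coactivator are themselves members. Promoter windows of 300 bases, 250 before and 50 after the start, were given by RefSeq (GRCm38.p6) for 27 of the 32 members, in 34 windows. A CArG box on either strand was found for 6 of the 27 members (22.2%), against 488 of 27025 genes in the table (1.81%). The box is in capitals below, each sequence runs 5′ to 3′ along its gene's strand, and a match is a description of letters, not of a bound site. In Srf 2 boxes lie in overlapping stretches, chr17:46556205-46556274 and chr17:46556185-46556254, both on the minus strand. Vcl is at chr14:20929148-20929210 on the plus strand, Myl9 at chr2:156775273-156775342 on the plus strand, Myl6 at chr10:128493020-128493089 on the minus strand, Dmd at chrX:82948742-82948811 on the plus strand and Ldb3 at chr14:34588677-34588746 on the minus strand.
Srf: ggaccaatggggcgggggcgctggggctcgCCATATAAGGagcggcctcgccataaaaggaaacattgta
Srf: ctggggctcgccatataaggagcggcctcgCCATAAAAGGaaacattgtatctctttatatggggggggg
Vcl: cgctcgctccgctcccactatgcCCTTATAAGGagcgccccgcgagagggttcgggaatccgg
Myl9: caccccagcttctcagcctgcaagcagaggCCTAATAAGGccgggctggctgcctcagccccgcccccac
Myl6: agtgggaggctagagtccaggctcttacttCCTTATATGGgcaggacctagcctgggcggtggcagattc
Dmd: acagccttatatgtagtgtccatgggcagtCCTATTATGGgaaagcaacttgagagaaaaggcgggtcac
Ldb3: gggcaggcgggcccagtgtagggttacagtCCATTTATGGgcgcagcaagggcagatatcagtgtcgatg

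Other short motifs were searched in the same windows, CATTCC on both strands and TATAAA on the gene's own strand only. CATTCC, the core bound by TEAD factors, occurred for 8 of 27 members (29.6%), against 16.6% of all genes. TATAAA occurred for 1 of 27 members (3.70%), against 9.77% of all genes. The members whose box is printed had differences between -0.12 (Srf) and -0.02 (Myl9) on their brightest probe sets.

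No member passed the test in the comparison of Cox-1 KO with wild-type uteri. At an adjusted p under 0.05 by limma 0 of 31 members were called, against 3 of 26444 probe sets (0.0113%), and the methods' t-test with its ratio threshold called 0 members and 228 probe sets (0.862%). The smallest adjusted p of a member was 0.401, that of Pgm5. At an unadjusted p under 0.05, 7 members were lower in Cox-1 KO uteri, against 5.12% of all probe sets, and 0 were higher, against 3.69%. The 4 Cox-1 KO arrays lay wholly below the 4 wild-type arrays for 2 members, Ppp1r14a and Lmod1, against 2.91% of all probe sets, and wholly above for 0 members, against 1.5%.

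In mean log2 signal 26 members were lower in Cox-1 KO uteri and 5 were higher, while 57.5% of all probe sets were lower. At a mean signal of 10000 or more, 46.7% of all probe sets were lower, against 84% of the members' 25. Some of those 25 belong to the same gene. The median difference of the members, Cox-1 KO minus wild-type, was -0.07 on the log2 scale, against -0.03 for all probe sets tested, and 22 members differed by less than 0.1. The 95% interval of the difference left out a 1.5-fold change in either direction for 30 of 31 members, the exception being Synm, and it included 0 for 24. Members were measured closely. Their median SD within a group was 0.09 on the log2 scale, against 0.18 over all probe sets, and for the 19 members with a mean signal of 10000 or more it was 0.08, against 0.08 for all 1318 probe sets that bright.

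**Figure D1:**
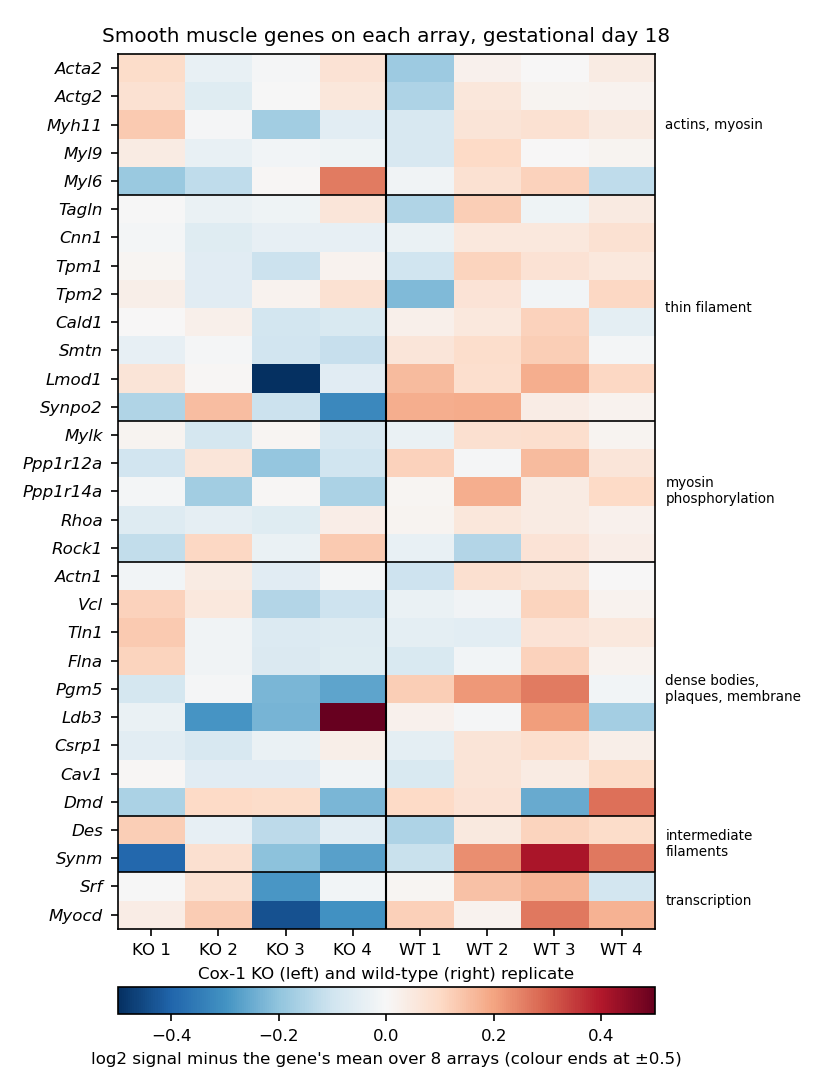
Log2 signal of each of the 31 measured members (rows, grouped by role) on each array (columns, Cox-1 KO left and wild-type right), relative to the gene's mean over the 8 arrays. Blue is below that mean and red above it, colours end at 0.5, and Cox-1 KO replicate 3 and wild-type replicate 1 each hold the lowest signal of 9 members.

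The contractile actins and myosin chains, which form the sliding filaments, were near level between the groups, with a median difference of -0.02 over 5 members, of which 3 were lower and 2 higher. Acta2, smooth muscle alpha actin, read 72540, 66361, 67758 and 71679 on Cox-1 KO arrays, against 59991, 69174, 68129 and 70074 on wild-type arrays. The highest value was on a Cox-1 KO array and the lowest on wild-type replicate 1, and the groups overlapped. The difference was 0.06 (95% interval -0.06 to 0.18, adjusted p = 0.774 by limma). Dimmer probe sets of Acta2, 1444105_at and 1456658_at, were lower in Cox-1 KO uteri, at -0.17 and -0.23, with overlapping groups. Actg2, the gamma actin of enteric and uterine smooth muscle, read 55021, 50031, 52079 and 54214 on Cox-1 KO arrays and 46853, 54252, 52710 and 52811 on wild-type arrays. It too had its lowest signal on wild-type replicate 1, and the difference was 0.03 (-0.08 to 0.15), with the sign turned to -0.01 under quantile normalization.

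Myh11, the smooth muscle myosin heavy chain that splits ATP to pull on actin, read 41044, 37320, 33216 and 36130 on Cox-1 KO arrays, against 35455, 39163, 39520 and 38618 on wild-type arrays. Cox-1 KO arrays held both its highest and its lowest signal, with a difference of -0.05 (-0.19 to 0.09). Myl9, the regulatory light chain that the kinase phosphorylates, averaged 54492 ± 1290 in Cox-1 KO uteri and 55164 ± 2857 in wild-type uteri (SD, n = 4 each), a difference of -0.02. Myl6, the essential light chain, averaged 4059 ± 579 in Cox-1 KO uteri and 4107 ± 305 in wild-type uteri, a difference of -0.02 (-0.24 to 0.19). Its other probe sets are annotated to several genes and were not used. Whether near-identical copies share its signal was not tested.

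Of the 8 proteins bound to the thin filament or to actin, 6 were lower in Cox-1 KO uteri and 2 higher, with a median difference of -0.07, and 2 had an unadjusted p under 0.05. Smtn, smoothelin, a protein of contractile smooth muscle cells, read 13152, 13507, 12677 and 12501 on Cox-1 KO arrays, against 14110, 14403, 14746 and 13439 on wild-type arrays. Only Cox-1 KO replicate 2 reached into the range of wild-type. The difference was -0.13 (-0.24 to -0.02), with an adjusted p of 0.538 by limma and an exact two-sided permutation p of 0.0571. With 4 arrays against 4 that exact test cannot go below 0.0286.

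Lmod1, leiomodin 1, which nucleates actin filaments, read 1779, 1709, 1169 and 1639 on Cox-1 KO arrays and 1901, 1806, 1933 and 1827 on wild-type arrays. The groups did not overlap, but the gap between them was narrow and Cox-1 KO replicate 3 was far below the rest. The difference was -0.26 (-0.53 to 0.00, adjusted p = 0.569 by limma, exact permutation p = 0.0286), -0.13 without that array and -0.14 without the 4 arrays high in Apoa1. Synpo2, synaptopodin 2 or myopodin, an actin-bundling protein of dense bodies and Z-discs, read 12996, 16047, 13361 and 11527 on Cox-1 KO arrays, against 16360, 16393, 14793 and 14601 on wild-type arrays. All but Cox-1 KO replicate 2 lay below wild-type, with a difference of -0.21 (-0.41 to -0.01, adjusted p = 0.553). Without the 4 arrays high in Apoa1, which leaves Cox-1 KO replicate 2 against 3 wild-type arrays, it was 0.02. Every difference given here for that setting rests on Cox-1 KO replicate 2 as the only knockout array.

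Cnn1, basic calponin, which restrains the myosin ATPase, read 33292, 32078, 32553 and 32548 on Cox-1 KO arrays, against 32752, 34776, 34767 and 35262 on wild-type arrays. The Cox-1 KO arrays lay close together and 3 of them below all of wild-type, and the difference was -0.08 (-0.17 to 0.01, adjusted p = 0.613). Tagln, transgelin or SM22 alpha, read 49583, 48564, 48899 and 51717 on Cox-1 KO arrays and 44675, 54106, 48931 and 51202 on wild-type arrays. Both its highest and its lowest signal were on wild-type arrays and the difference was 0.00 (-0.12 to 0.13), or -0.04 under quantile normalization. The tropomyosins, which lie along the thin filament, differed by -0.07 (Tpm1) and 0.03 (Tpm2, or -0.02 under quantile normalization), and Cald1, caldesmon, an inhibitor of the actomyosin ATPase, by -0.07.

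Among the 5 members that set myosin phosphorylation 4 were lower in Cox-1 KO uteri and 1 higher, with a median of -0.07, and 2 had an unadjusted p under 0.05. Both belong to the phosphatase side. Ppp1r12a, the subunit that targets myosin phosphatase to myosin (MYPT1), read 9202, 10242, 8600 and 9190 on Cox-1 KO arrays, against 10654, 9793, 10964 and 10263 on wild-type arrays, a difference of -0.16 (-0.30 to -0.02, adjusted p = 0.538), or -0.03 without the 4 arrays high in Apoa1. Cox-1 KO replicate 2, the only Cox-1 KO array left in that setting, lay among the wild-type values. The other Cox-1 KO arrays lay below them. Ppp1r14a, the phosphatase inhibitor CPI-17, read 5215, 4649, 5274 and 4707 on Cox-1 KO arrays and 5276, 5947, 5400 and 5623 on wild-type arrays. The groups did not overlap, although Cox-1 KO replicate 3 and wild-type replicate 1 nearly met, and the difference was -0.17 (-0.31 to -0.02, adjusted p = 0.538, exact permutation p = 0.0286), or -0.25 without the 4 arrays high in Apoa1.

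Mylk, the gene of myosin light chain kinase, read 34514, 32209, 34448 and 32367 on Cox-1 KO arrays, against 33406, 36206, 36274 and 34545 on wild-type arrays. The ranges overlapped, with a difference of -0.07 (-0.17 to 0.03). Rhoa, a small GTPase, read 16024, 16205, 16052 and 17147 on Cox-1 KO arrays and 16910, 17422, 17237 and 16991 on wild-type arrays, a difference of -0.07 (-0.16 to 0.03). Rock1, a protein kinase that phosphorylates the targeting subunit of the phosphatase, differed by 0.04 (-0.12 to 0.20) on its brightest probe set, and when its probe sets were averaged the sign turned, to -0.13.

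**Figure D2:**
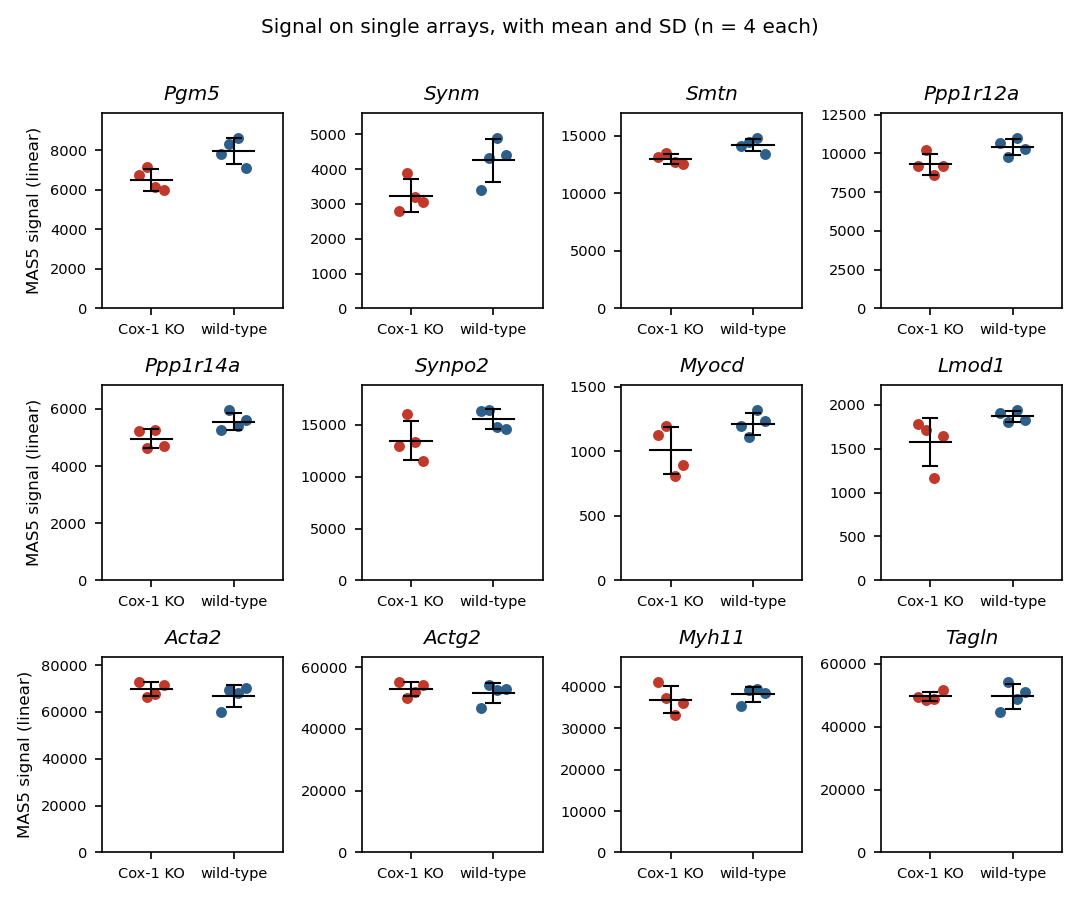
Signal on a linear scale from 0 for 12 members (panels), on the 4 Cox-1 KO arrays (red, left) and the 4 wild-type arrays (blue, right), with lines for the mean and bars for the SD. The upper 8 panels hold the members with the smallest p, where at least 1 Cox-1 KO array reaches the wild-type range in all but Ppp1r14a and Lmod1, and the lower 4 hold Acta2, Actg2, Myh11 and Tagln, whose groups overlap.

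All 9 members of dense bodies, dense plaques, caveolae and membrane links were lower in Cox-1 KO uteri, but 8 of them by 0.10 or less on the log2 scale, and the median was -0.04. The exception was Pgm5, aciculin, an adherens junction protein related to phosphoglucomutase that binds dystrophin and utrophin and had the smallest p of all members. It read 6755, 7147, 6115 and 5972 on Cox-1 KO arrays, against 7804, 8330, 8585 and 7107 on wild-type arrays. Cox-1 KO replicate 2 was just above the lowest wild-type array and the other Cox-1 KO arrays lay below all of wild-type. The difference was -0.29 (-0.46 to -0.12), with an unadjusted p of 0.00323 and an adjusted p of 0.401 by limma and an exact permutation p of 0.0571. It was -0.20 without the 4 arrays high in Apoa1, with Cox-1 KO replicate 2 as the only knockout array.

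Of the remaining members of that role, Vcl (vinculin), Tln1 (talin) and Flna (filamin A), which tie actin to integrins, differed by -0.04, -0.01 and -0.02, and Actn1, the actin crosslinker alpha-actinin, by -0.02. Tln1 turned to 0.00 with each array centred on its median. Cav1, the coat protein of caveolae, differed by -0.06, Csrp1, a LIM protein of the actin cytoskeleton, by -0.07 and Dmd, dystrophin, by -0.10 (-0.36 to 0.16). Ldb3, a PDZ and LIM protein known mainly from the Z-disc of striated muscle, had the widest spread within groups of any member, with an SD of 0.28 on the log2 scale. It read 555, 463, 484 and 805 on Cox-1 KO arrays, against 577, 566, 656 and 505 on wild-type arrays. The value of 805 came from Cox-1 KO replicate 4, the array on which Mylpf read 3246, and without it the difference was -0.20, in place of -0.03. The part of skeletal muscle RNA in this value was not tested.

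Of the intermediate filament genes, Synm, synemin, which links desmin filaments to dense bodies and plaques, had the lowest difference of all members. It read 2809, 3895, 3195 and 3051 on Cox-1 KO arrays, against 3407, 4322, 4882 and 4421 on wild-type arrays. Cox-1 KO replicate 2 lay within the wild-type range and the other Cox-1 KO arrays below it. The difference was -0.39 (-0.66 to -0.13, adjusted p = 0.489 by limma, exact permutation p = 0.0571). It was -0.09 without the 4 arrays high in Apoa1, where Cox-1 KO replicate 2 was the only knockout array. Des, desmin, the main subunit of these filaments in muscle, read 30007, 26817, 25159 and 26594 on Cox-1 KO arrays, against 24808, 28530, 29807 and 29418 on wild-type arrays. Each group spanned most of the range of the other, with a difference of -0.05 (-0.21 to 0.10).

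The transcriptional regulators were both lower in the mean in Cox-1 KO uteri, and both had their lowest signal on Cox-1 KO replicate 3. Myocd, myocardin, read 1124, 1198, 811 and 890 on Cox-1 KO arrays, against 1192, 1109, 1315 and 1237 on wild-type arrays. Cox-1 KO replicates 3 and 4 lay below all of wild-type and replicates 1 and 2 within its range. The difference was -0.29 (-0.57 to 0.00, adjusted p = 0.562 by limma, exact permutation p = 0.143), and it was -0.19 without Cox-1 KO replicate 3. Without the 4 arrays high in Apoa1 it was -0.01, with Cox-1 KO replicate 2 as the only knockout array. Srf, serum response factor, read 2073, 2192, 1697 and 2058 on Cox-1 KO arrays and 2090, 2297, 2339 and 1951 on wild-type arrays. The groups overlapped, and the difference of -0.12 (-0.33 to 0.09) was -0.04 without Cox-1 KO replicate 3.

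**Figure D3:**
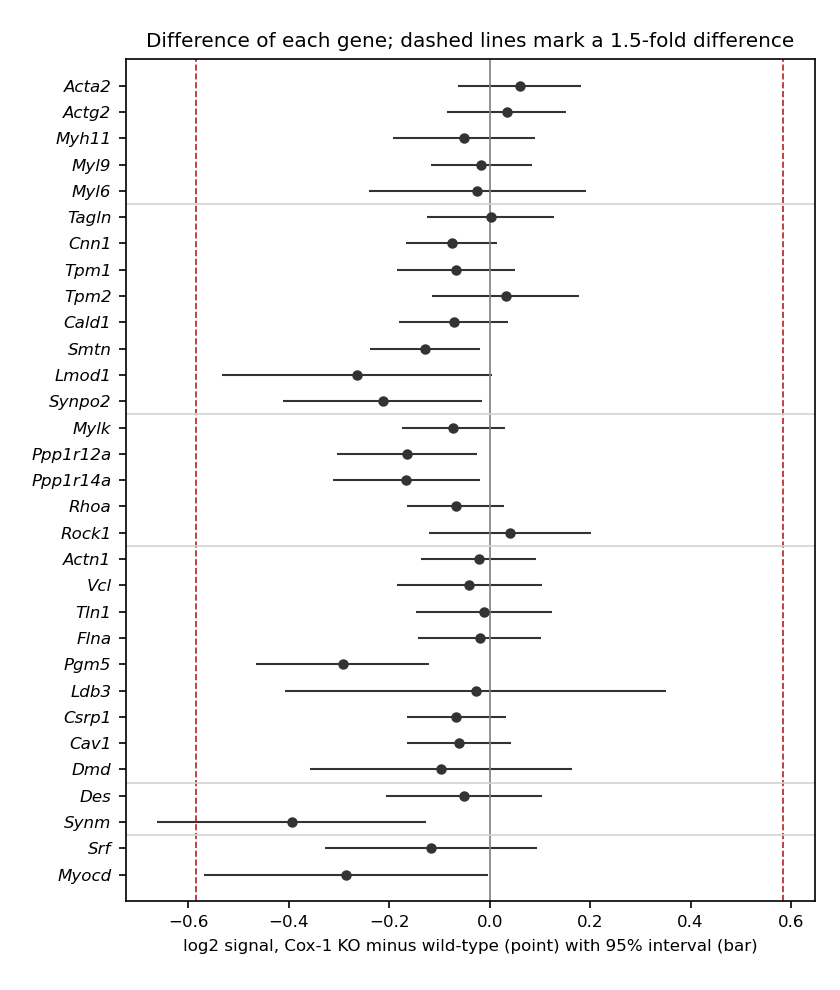
Difference in log2 signal, Cox-1 KO minus wild-type, for each member (point) with its 95% interval (bar), grouped by role. Dashed lines mark a 1.5-fold difference, which the interval of Synm alone reaches, and 24 of 31 intervals include 0.

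The 7 members with an unadjusted p under 0.05 were Pgm5, Synm, Smtn, Ppp1r12a, Ppp1r14a, Synpo2 and Myocd. Their number depended on single arrays, and the share of all probe sets lower at that p is given in brackets. The number was 3 without Cox-1 KO replicate 3 (4.45%) and 2 without Cox-1 KO replicate 4 (4.31%). It was 4 without wild-type replicate 2 (4.14%) and also without wild-type replicate 3 (4.61%). Without the 4 arrays high in Apoa1 it was 0, in a fit that has 1 Cox-1 KO array and in which 2.27% of all probe sets were lower at that p. With the mean log2 signal of the yolk sac and fetal list as a covariate it was 3 (Pgm5, Ppp1r14a and Synm), against 3.14% of all probe sets. The part of those transcripts in the members' values was not tested further. Uterus is a mixed tissue, and on such bulk RNA fewer smooth muscle cells and less RNA per cell cannot be told apart.

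Array by array, the mean level of the 31 members relative to all 8 arrays was -0.01, -0.02, -0.11 and -0.04 on Cox-1 KO arrays, against -0.03, 0.07, 0.09 and 0.04 on wild-type arrays. Wild-type replicate 1 thus lay among the Cox-1 KO arrays. It held the lowest signal of 9 members (29.0%, against 13.4% of all probe sets), which were Acta2, Actg2, Myl9, Tagln, Tpm2, Actn1, Flna, Cav1 and Des, and the highest of 0 (against 20.3% of all probe sets). These are bright genes, and the shares are over probe sets of any signal. Of the fibroblast and stroma genes, Col1a2, Col3a1, Dcn and Lum were also lowest on wild-type replicate 1, while Col1a1 and Pdgfra were not. The highest signal on that array was 77534, against 85156 or more on the others. Low values there were thus not limited to smooth muscle genes. Cox-1 KO replicate 3 held the lowest signal of another 9 members (29.0%, against 13.4%), namely Myh11, Lmod1, Tpm1, Cald1, Ppp1r12a, Vcl, Tln1, Srf and Myocd. Wild-type replicate 3 held the highest signal of 11 members (35.5%, against 11.5% of all probe sets). The roles differed in the array that was lowest. The actins and myosin chains were lowest on wild-type replicate 1, at -0.10, and the pair of regulators on Cox-1 KO replicate 3, at -0.36.

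**Figure D4:**
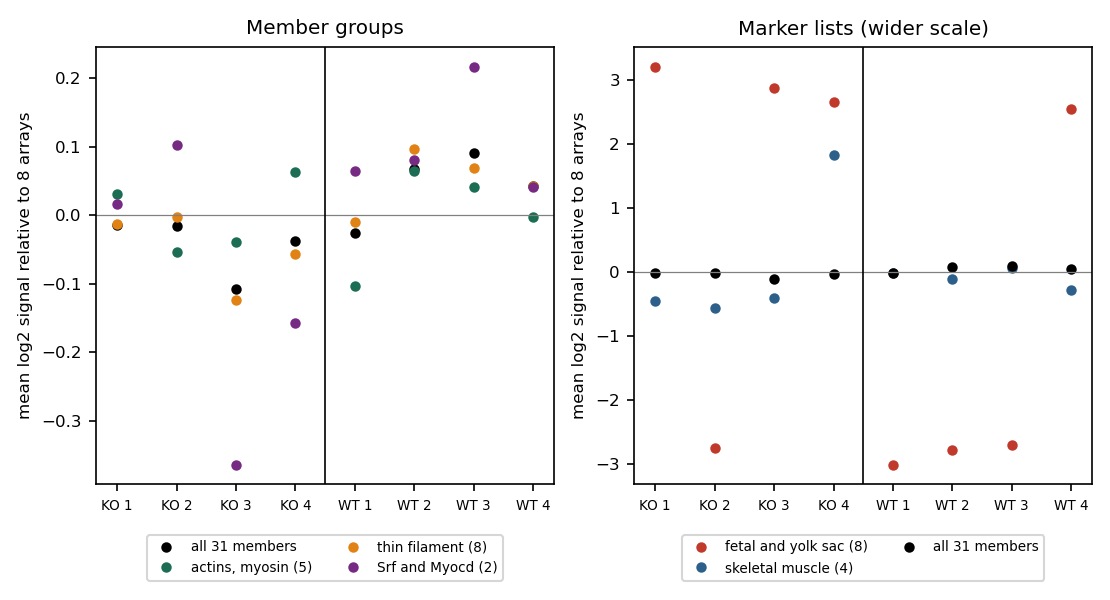
Mean log2 signal of gene lists on each array relative to the 8 arrays, Cox-1 KO left and wild-type right: all members, 2 of their roles and the regulators (left panel), and the members beside the fetal and yolk sac list and the skeletal muscle list (right panel, wider axis). The members stay between -0.11 and 0.09, while the fetal and yolk sac list spans -3.01 to 3.20 and skeletal muscle genes reach 1.82 on Cox-1 KO replicate 4.

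Dimmer probe sets of the same members mostly gave lower differences than the brightest. Of 37 other probe sets that passed the filter 34 were lower in Cox-1 KO uteri and 3 higher, with a median difference of -0.17, where 57.5% of all probe sets were lower. An unadjusted p under 0.05 was reached by 10, all lower, against 5.12% of all probe sets, and 4 did not overlap, all lower, against 2.91%. Among the 20 members with more than 1 such probe set, all probe sets were lower for 16, and the others had a median below the brightest for 15. By signal, the members' probe sets had a median difference of -0.19 under 1000 (16 probe sets, against -0.04 for all of that signal), -0.17 between 1000 and 10000 (27, against -0.02) and -0.05 at 10000 or more (25, against 0.01). None of them passed the adjusted threshold.

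Cald1 shows this spread within a gene. Its brightest probe set differed by -0.07. Probe set 1424768_at read 14022, 13874, 13468 and 14302 on Cox-1 KO arrays, against 15829, 16518, 17046 and 17291 on wild-type arrays, with no overlap and a difference of -0.26 (-0.36 to -0.16, adjusted p = 0.147 by limma, the smallest of any member's probe set). A further probe set, 1424770_at, differed by -0.41. For Ppp1r12a, probe set 1453163_at read 3707, 3638, 3517 and 3625 on Cox-1 KO arrays and 4708, 4289, 4525 and 4307 on wild-type arrays, without overlap and with a difference of -0.30 (adjusted p = 0.183), and all 4 probe sets of this gene were lower. Vcl divided: 1416157_at read 3475, 3558, 3320 and 3465 on Cox-1 KO arrays, against 4186, 4556, 4045 and 4139 on wild-type arrays (-0.29, adjusted p = 0.234), while its brightest probe set differed by -0.04. These probe sets were chosen for their small p.

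Other members disagreed in sign between probe sets. For Acta2 the brightest gave 0.06, against -0.17 for 1444105_at and -0.23 for 1456658_at. For Rock1 the dim probe set 1441162_at read 157, 175, 180 and 126 on Cox-1 KO arrays, against 201, 244, 233 and 201 on wild-type arrays, a difference of -0.47, where the brightest gave 0.04. For Tpm2 the dim probe set 1449577_x_at differed by 0.84 (-0.20 to 1.88), with signals between 350 and 1279 on Cox-1 KO arrays and between 193 and 967 on wild-type arrays, so that its groups overlapped widely. With the probe sets of each gene averaged in place of the brightest alone, the median difference of the members was -0.11, against -0.02 for all genes. In that setting 10 members were lower at an unadjusted p under 0.05, against 5.40% of all genes.

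**Figure D5:**
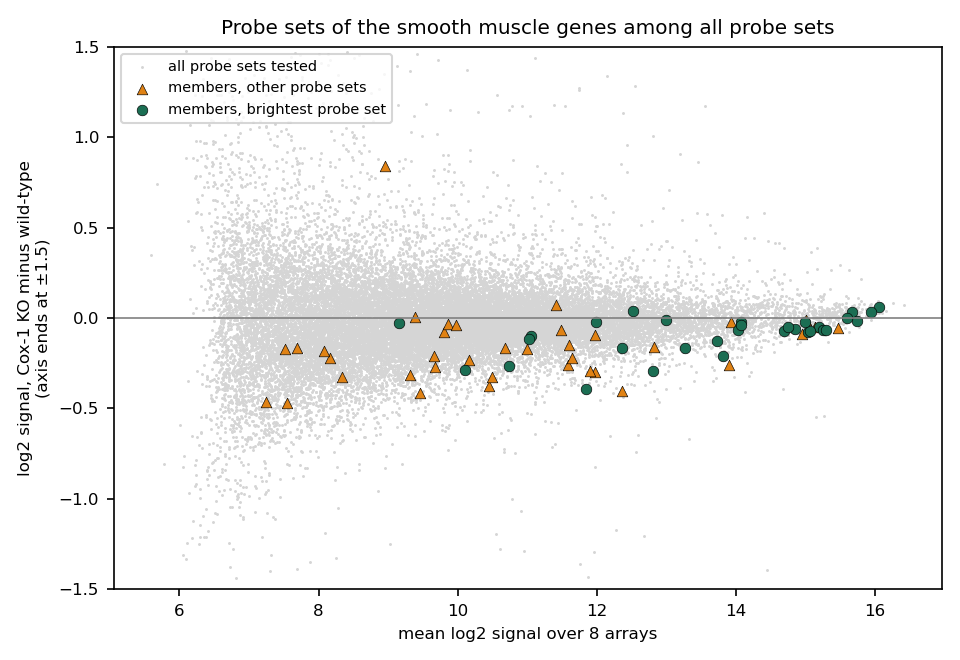
Difference in log2 signal, Cox-1 KO minus wild-type (vertical axis, ending at 1.5 either way), against mean log2 signal over 8 arrays for all 26444 probe sets tested (grey), the brightest probe set of each member (green circles) and the members' 37 other probe sets (orange triangles). Most triangles lie below 0, with a median of -0.17, and the circles at high signal lie near 0.

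A wider list of 64 genes of contraction (nonmuscle actins and myosins, further tropomyosins and calponins, phosphatase and signalling genes, adhesion and dystrophin complex genes, and other transcription factors) gave 56 measured genes, of which 37 were lower and 19 higher in Cox-1 KO uteri, with a median difference of -0.03, where 57.5% of all probe sets were lower. At an unadjusted p under 0.05, 6 were lower (against 5.12% of all probe sets) and 1 higher (against 3.69%), and 0 passed the adjusted threshold. Pdlim3, the alpha-actinin associated LIM protein ALP, came nearest. It read 17503, 17342, 16302 and 16090 on Cox-1 KO arrays, against 21200, 22326, 20534 and 19833 on wild-type arrays, with no overlap and a difference of -0.32 (adjusted p = 0.0970 by limma, exact permutation p = 0.0286). The difference was -0.30 without the 4 arrays high in Apoa1, and its adjusted p lay between 0.0882 and 0.334 when any single array was left out.

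Lims1 (PINCH), which had the next smallest p and is an adaptor of integrin-linked kinase, read 6168, 7085, 6510 and 6190 on Cox-1 KO arrays, against 8454, 7644, 7447 and 7450 on wild-type arrays, with no overlap and a difference of -0.26 (adjusted p = 0.367), or -0.15 without the 4 arrays high in Apoa1. Itgb1, the beta-1 integrin, read 15182, 15710, 12994 and 14892 on Cox-1 KO arrays, against 15727, 16061, 17666 and 16414 on wild-type arrays, likewise without overlap, a difference of -0.17, or -0.07 without the 4 arrays high in Apoa1. Ppp1r12b, another targeting subunit of myosin phosphatase, read 4299, 4615, 3789 and 3706 on Cox-1 KO arrays, against 4815, 4769, 4887 and 4516 on wild-type arrays, with 1 Cox-1 KO array in the wild-type range and a difference of -0.22, or -0.06 without the 4 arrays high in Apoa1. Sspn, sarcospan of the dystrophin complex, read 1839, 1946, 1720 and 1657 on Cox-1 KO arrays and 2410, 2257, 1944 and 1907 on wild-type arrays, a difference of -0.25 with overlapping groups. Mrtfb, a coactivator of Srf related to myocardin, ran the other way: 4068, 4021, 4187 and 3727 on Cox-1 KO arrays, against 3418, 3680, 3713 and 3481 on wild-type arrays, without overlap and with a difference of 0.16 (adjusted p = 0.538). Mef2d, a transcription factor that can act with myocardin, also lay wholly higher, at 0.14, and Fermt2 (kindlin-2), an integrin activator, wholly lower, at -0.09. Of the 56 measured genes of the wider list, 4 lay wholly lower, against 2.91% of all probe sets. Those wholly higher numbered 2, against 1.5%.

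Lists of markers of the uterus and of its other cell types had medians of either sign. Of 7 measured markers of vascular smooth muscle and pericytes 5 were lower in Cox-1 KO uteri and 2 higher, with a median of -0.17. Their summed signal ranged between 27586 and 32998 on Cox-1 KO arrays and between 30636 and 34702 on wild-type arrays. Cspg4 and Kcnj8 lay wholly lower, at -0.36 and -0.28, as did 2.91% of all probe sets. All 6 uterine markers were lower, with a median of -0.15 and sums of 37322 to 44136 on Cox-1 KO arrays and 43128 to 48903 on wild-type arrays. All 6 markers of uterine epithelium were higher, with a median of 0.18 and sums of 98068 to 118632 on Cox-1 KO arrays and 79203 to 100682 on wild-type arrays. Their mean log2 level relative to the 8 arrays was 0.54, -0.21, 0.23 and 0.04 on Cox-1 KO arrays, against -0.44, -0.22, -0.13 and 0.20 on wild-type arrays, so that the 4 arrays above 0 were those high in Apoa1. Of 6 endothelial markers 5 were lower and 1 higher, with a median of -0.10. Their sums were 10789 to 12209 on Cox-1 KO arrays and 11437 to 12677 on wild-type arrays. Of these 6, Pecam1 alone lay wholly lower, at -0.29, against the same 2.91% of all probe sets. Of 4 leukocyte markers 2 were lower and 2 higher, with a median of 0.05 and sums of 25347 to 29288 on Cox-1 KO arrays and 23821 to 26850 on wild-type arrays. For 6 genes of fibroblasts and stroma the median was 0.02, with sums of 281185 to 298537 on Cox-1 KO arrays and 272425 to 300249 on wild-type arrays. None of these genes passed the adjusted threshold, and the part of cell makeup in the members' values was not tested.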

How the data were processed

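RNA from 8 gravid d18.0 uteri (4 Cox-1 KO, 4 wild-type) was hybridized to Affymetrix mouse arrays. The authors computed MAS5 signals and scaled every array to a target of 1000, and the deposited table holds 28000 probe sets of linear signal intensity, 60 of them controls. How these were selected is not given in the sources used here. Array medians were 731 to 757, 92.4 to 94.0% of probe sets read 100 or more, and array pairs correlated at 0.944 to 0.982 with no identical pair. The number of arrays limits the precision. In the platform annotation 23567 probe sets had 1 symbol, 653 several and 3720 none, and only the first were named. Ptgs1 was named from the probe set the study's additional file pairs with it.

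Signals under 1 were set to 1 (1 value). Log2 signals of the 26444 probe sets at 100 or more on at least 4 arrays were fitted with limma 3.58.1 (R 4.3.3, eBayes with trend), with Benjamini-Hochberg adjustment across these probe sets and a threshold of 0.05. Intervals are 95% intervals of that fit. Permutation tests were exact and two-sided, over all splits of the 8 arrays into 4 and 4. The methods' t-test was run with scipy 1.17.1. The scripts were tested on simulated data. Signals on every array are given for the 8 members with the smallest p, members whose groups do not overlap, the main smooth muscle markers, Srf, Myocd and the member with the widest spread, and from the wider list for the genes with the smallest p. Rhoa, whose arrays were added for an outlying value, the dimmer probe sets, Mef2d and Fermt2 were chosen after their values were seen. The members and lists were chosen with earlier results of these data known. Replicate numbers are not said to pair mice. The methods' t-test is a Welch test on log2 signal with their thresholds of 0.05 and a 1.5-fold ratio of means, run on the probe sets of the signal filter, since the detection calls that the study also filtered on were not used here. Alternatives changed the constant, floor, filter, normalization, variance model, arrays, covariate, probe set rule and test. The labels give Sv129 for the Cox-1 KO background, where the study's text has 129P2, and the study's text also gives a later lower limit of age than the labels.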

Additional observations from a re-analysis of the deposited data

Results flagged for a closer look

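For Rhoa, Cox-1 KO replicate 4 read 17147, against 16024, 16205 and 16052 on the other Cox-1 KO arrays, and its gap to the nearest of them was 0.834 of the group's whole range, just above the critical value of Dixon's test at 95% for 4 samples. The wild-type arrays read 16910, 17422, 17237 and 16991, so this array alone brought the groups to overlap. It was the only such value among 62 groups of 4 arrays examined for the 31 members, where chance flags about 1 in 20 groups.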

How the results depend on the processing

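Over 21 alternative settings 0 members passed the adjusted threshold, with a lowest adjusted p of 0.143 in any of them, and 17 of 31 members kept the sign of their difference in all of them. Members lower in Cox-1 KO uteri numbered 22 to 29, against 26, and their median difference of -0.07 was -0.11 with each gene's probe sets averaged and -0.09 to -0.04 with single arrays left out. For members lower at an unadjusted p under 0.05, the share of all probe sets is given in brackets. The 7 members (5.12%) became 13 with quantile normalization (4.95%) and 2 without the variance trend (5.13%). They became 4 with the replicate block (4.31%) and 3 with the fetal and yolk sac covariate (3.14%). With single arrays left out they numbered 2 to 7 (3.84 to 6.33%). The 3 probe sets called over the whole array (1 higher, 2 lower) became 10 with 32 added to each signal (7 higher, 3 lower), 12 with a floor of 100 (9 higher, 3 lower), 11 with median centring (8 higher, 3 lower), 6 with the robust fit (4 higher, 2 lower), 18 with array weights (14 higher, 4 lower), 6 without the 4 arrays high in Apoa1 (0 higher, 6 lower), 228 with the methods' t-test and 2 to 25 with single arrays left out. The methods' t-test compares the same log2 means, while its 1.5-fold threshold is on the ratio of mean linear signals. No separate differences are listed for it. The cause of these moves was not tested.

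Whether replicate numbers pair mice is not stated. Deviations from the group means of equally numbered arrays correlated at -0.25, 0.22, -0.18 and 0.17, and 2 of 8 arrays correlated best with their own number. With so few arrays these values cannot decide whether mice were paired or handled together. With the replicate block 3 probe sets were called (0 higher, 3 lower).

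Signs turned as follows. Acta2 was -0.11 and Rock1 -0.13 with each gene's probe sets averaged. With quantile normalization Actg2 was -0.0086, Tagln -0.041 and Tpm2 -0.016. Tagln was -0.0087 with array weights, and Tln1 0.00073 with median centring. Without the 4 arrays high in Apoa1 Actg2 was -0.032, Tagln -0.015, Tpm2 -0.0010, Synpo2 0.020, Actn1 0.027, Vcl 0.031 and Dmd 0.13. With the covariate Actg2 was -0.0093, Tagln -0.027 and Tpm2 -0.039. With single arrays left out the difference ranged between -0.012 and 0.060 for Actg2, -0.046 and 0.015 for Myl9, -0.12 and 0.034 for Myl6, -0.048 and 0.044 for Tagln, -0.037 and 0.072 for Tpm2, -0.0012 and 0.087 for Rock1, -0.059 and 0.00066 for Actn1, -0.086 and 0.0016 for Vcl, -0.056 and 0.011 for Tln1, -0.060 and 0.015 for Flna, and -0.20 and 0.066 for Ldb3. The half-width of the 95% interval was 0.09 to 0.38 over the members, which limits what these arrays can show.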
